A study of Rattus norvegicus with 20 samples.

Results

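The 10 genes described here are Egr1, Egr2, Egr3, Egr4, Nr4a1, Nr4a2, Nr4a3, Npas4, Ier2 and Arc, which belong to the immediate-early genes. They were chosen by name, with no measured value in the rule, from 32402 genes in the deposited tables, and each was found there under its own symbol. Earlier results of these data were known when they and the other gene lists were chosen. Their transcripts were measured by RNA-seq in the supraoptic nucleus (SON) of 20 male Wistar Han rats. The SON is a hypothalamic nucleus of large neurosecretory (magnocellular) neurones that make vasopressin and oxytocin and are driven by dehydration (DH). The adult euhydrated (EH) group held 5 rats aged 3 months with free access to water, and the adult DH group held 5 rats of the same age that went without water. The aged EH and aged DH groups held 5 rats each, aged 18 months, and were treated likewise. The labels give the duration of DH as 2 days and the methods of the study give a longer time. The labels name no transgene or drug, and the RNA came from whole tissue punches, which can include tissue beside the nucleus.

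Immediate-early genes are transcribed within minutes of a stimulus, because the factors that switch them on, among them SRF with its ELK partners and CREB, are already present in the cell. Egr1 to Egr4 encode zinc-finger transcription factors that bind GC-rich sites. Nr4a1 to Nr4a3 encode orphan nuclear receptors, Npas4 encodes a transcription factor that responds to calcium entry in neurones, Ier2 encodes a nuclear protein, and Arc encodes a protein that moves to active synapses and promotes glutamate receptor endocytosis. Transcripts of these genes are usually short-lived, and immediate-early genes are widely used as signs of recent activation of SON neurones.

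In adult rats, Nr4a1 (2.39-fold) and Ier2 (1.44-fold) were higher in DH than in EH, and the other 8 genes did not pass the test. In aged rats, Egr4 fell by 1.004 on the log2 scale in DH, and none of the other 9 genes passed the test. The call of Egr4 held under 4 of 7 alternative settings. None of the 10 passed the test between aged EH and adult EH rats, and for none of them was the response to DH shown to differ between the ages. Within each group the rats varied widely, and rats high in Egr1 were usually also high in Nr4a1, Arc, Egr4 and Nr4a3.

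The sequences just upstream of the start sites of the 3 genes that passed a test are shown because the activation of immediate-early genes runs through short motifs there. They are RefSeq sequences of the GRCr8 assembly, 250 bases each, written 5′ to 3′ on the strand of the gene and ending at the base before the start site. The deposited tables were made on another assembly, Rn6. Capitals mark every match to the motifs named after the sequences.
Nr4a1, chr7:134259888-134260137, plus strand: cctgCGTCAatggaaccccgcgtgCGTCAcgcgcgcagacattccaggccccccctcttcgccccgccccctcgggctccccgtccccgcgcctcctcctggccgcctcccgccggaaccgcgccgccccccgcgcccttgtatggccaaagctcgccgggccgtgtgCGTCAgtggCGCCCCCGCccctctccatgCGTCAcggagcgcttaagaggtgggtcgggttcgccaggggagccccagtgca
Ier2, chr19:40399123-40399372, plus strand: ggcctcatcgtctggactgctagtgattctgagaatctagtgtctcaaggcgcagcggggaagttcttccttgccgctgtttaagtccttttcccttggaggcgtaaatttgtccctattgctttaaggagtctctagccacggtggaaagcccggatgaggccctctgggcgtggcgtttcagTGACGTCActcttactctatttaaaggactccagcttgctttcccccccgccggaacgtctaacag
Egr4, chr4:119607818-119608067, minus strand: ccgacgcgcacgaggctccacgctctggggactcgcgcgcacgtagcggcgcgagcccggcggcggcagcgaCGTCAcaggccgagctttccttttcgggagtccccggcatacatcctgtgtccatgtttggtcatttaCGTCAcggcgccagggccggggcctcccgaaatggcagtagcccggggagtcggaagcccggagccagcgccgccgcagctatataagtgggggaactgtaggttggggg

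The motifs were searched on both strands in windows of 250 bases before and 50 after the start site, which the reference held for 7 of the 10 genes (Egr1, Egr2, Egr4, Nr4a1, Nr4a2, Npas4 and Ier2). The cAMP response element (CRE), TGACGTCA, was found in the Ier2 window alone of the 7, and in 1.83% of all 33469 windows. Its core, TGACG, which the complete element holds on each strand, was found in 6 of the 7 windows, against 21.2% of all windows. It occurred at 4 places in Nr4a1, at 2 each in Egr1, Egr4 and Ier2 (the complete element in the case of Ier2), and at 1 each in Egr2 and Nr4a2, and it was not found in the Npas4 window. The CArG box, the binding site of SRF, was found at 2 places in the Egr1 window and at 1 in the Egr2 window, and in 1.64% of all windows. An EGR site, GCGNGGGCG, was found at 1 place in the Nr4a1 window, and in 4.98% of all windows. The AP-1 site TGANTCA (7.33% of all windows) and the NR4A site AAAGGTCA (1.43%) were found in none of the 7. A match of letters is a description and not a measurement of binding.

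The values are normalized counts, that is, reads per gene divided by a size factor for the library. The recovered number of reads on genes was 24268398 to 28491926 in the adult libraries, and the total of the normalized counts was 25931931 to 28689164 over the columns of all tables. All 7 magnocellular markers tested (Avp, Oxt, Sim1, Otp, Pou3f2, Creb3l1 and Slc17a6) were detected, and their summed level was 202560 to 289600 normalized counts in adult EH and 279640 to 378190 in adult DH (two-sided exact permutation test of the mean log2 level, p = 0.00794, adjusted p = 0.0714 over 27 marker tests). In aged rats it was 255490 to 359100 in EH and 296520 to 485880 in DH (exact p = 0.0397, adjusted p = 0.161). The sum gives most weight to the markers with the highest counts, and the 7 did not move together. By the test described below, Avp and Creb3l1 were higher in adult DH and the other 5 did not pass. In aged DH, Creb3l1 was higher, Sim1 was lower and 5 did not pass. The part of these cells in the results below was not tested. Values per rat and group means below are on a scale common to all 20 rats, obtained by dividing the adult columns by 0.980 to 0.984 and the aged columns by 1.02. The log2 fold changes (LFCs), their standard errors (SE) and the adjusted p-values come from the separate table of each comparison, by limma, adjusted over every gene tested by the Benjamini-Hochberg method. The LFC is taken on log2 of the normalized count plus 1, and a gene is called a differentially expressed gene (DEG) at an adjusted p below 0.05. All 10 genes passed the filter of a mean of at least 10 in every comparison. The share of all genes tested without overlap between groups was not counted, so a lack of overlap below is a description only. The rats of a group are separate animals, but the labels do not say whether they were handled in cohorts. The study's methods state that adult and aged rats were studied in parallel. They also state that the punches, the RNA and the sequencing of both ages were done at the same time. The methods describe, for the aged rats, the assignment of whole cages at random to EH or DH. The labels do not name the cages, so rats of a group may have shared a cage, and the tests treat each rat as independent. In punches, fewer cells of a type and less RNA per cell cannot be told apart.

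The first comparison asked how the SON of adult rats responded to DH. Of 15280 genes tested, 12.7% were DEGs, 7.67% up and 4.99% down in DH rats. Of the 10 immediate-early genes, 2 were higher and 0 were lower. The median LFC of the 10 was 0.26, against -0.0073 over all genes tested. An LFC above 0 was found in 6 of the 10, against 47.8% of all genes tested.

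Nr4a1 (ENSRNOG00000007607), an orphan nuclear receptor, had the lowest p-value of the 10 in this comparison. Its normalized counts in the 5 adult EH rats were 410.9, 272.3, 272.2, 592.7 and 489.0, and in the 5 adult DH rats 1009, 1045, 1150, 744.9 and 761.6. Each DH rat was above each EH rat. The mean was 407.4 ± 139 in EH and 942.1 ± 180 in DH (SD, n = 5), and the LFC was 1.25 with an SE of 0.202 (limma, adjusted p = 0.00115). Nr4a1 ranked 346 of the 15280 genes by p-value. Its paralogues did not pass the test, with LFCs of -0.04 for Nr4a2 (95% interval -0.23 to 0.16, adjusted p = 0.844) and 0.06 for Nr4a3 (-0.23 to 0.35, adjusted p = 0.816). The intervals of these receptors lay below the lower limit of the interval for Nr4a1, which was 0.82.

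Ier2 (ENSRNOG00000054344), which encodes a nuclear protein, was the other DEG. Its normalized counts were 156.9, 158.9, 156.9, 165.2 and 182.0 in adult EH rats and 224.8, 266.5, 312.7, 192.2 and 205.8 in adult DH rats. The EH rats lay close together, with a coefficient of variation of 6.48%, and all DH rats lay above them. The mean rose from 164.0 ± 10.6 to 240.4 ± 49.2 (SD, n = 5), with an LFC of 0.53 and an SE of 0.119 (limma, adjusted p = 0.0110). Both calls remained when any single rat was left out and in edgeR and DESeq2 on the recovered reads.

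The Egr genes did not pass the test in adult rats and their LFCs had unlike signs. Egr1 (ENSRNOG00000019422) measured 1359, 1114, 581.3, 1801 and 1354 normalized counts in EH rats and 1683, 1709, 2290, 1446 and 1125 in DH rats. The groups overlapped, since the lowest DH rat lay below 3 of the 5 EH rats, and the LFC was 0.46 (95% interval -0.07 to 0.998, adjusted p = 0.253). Egr2 (ENSRNOG00000000640), better known for its part in myelination, was the lowest in counts, with 6.87 to 22.7 in EH and 14.8 to 25.2 in DH, and its LFC was 0.56 (-0.17 to 1.29, adjusted p = 0.318).

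Egr3 and Egr4 had LFCs below 0. Egr3 (ENSRNOG00000017828) measured 227.5, 112.4, 128.6, 265.4 and 204.6 in adult EH rats and 172.5, 83.5, 144.9, 185.4 and 131.1 in adult DH rats, an LFC of -0.36 (limma, adjusted p = 0.388). Egr4 (ENSRNOG00000015719) measured 67.7, 30.04, 37.8, 74.3 and 42.3 in EH rats and 28.6, 28.6, 41.96, 33.2 and 26.001 in DH rats. The Egr4 range of the DH rats reached into that of the EH rats, and its LFC of -0.59 (95% interval -1.11 to -0.07) had an unadjusted p of 0.0291 and an adjusted p of 0.134. Of 9 alternative settings it passed under 1, with the level of Slc17a7 as a covariate (LFC -0.66, limma, adjusted p = 0.0439), which was added after seeing the data, and it passed in none of the 10 fits with a rat left out.

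Npas4 and Arc, the members most closely tied to synaptic activity, did not pass the test either. Npas4 measured 12.7, 59.1, 12.3, 24.8 and 24.6 in adult EH rats and 27.6, 44.4, 115.9, 16.02 and 49.8 in adult DH rats. Its spread was the widest of the 10, with coefficients of variation of 59.6% to 95.5% over the 4 groups, and the LFC of 0.84 had a 95% interval of -0.21 to 1.89 (limma, adjusted p = 0.298). Arc ranged from 284.5 to 576.1 in EH and from 256.3 to 516.5 in DH, with an LFC of -0.10 (-0.52 to 0.32, adjusted p = 0.798).

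**Figure D1:**
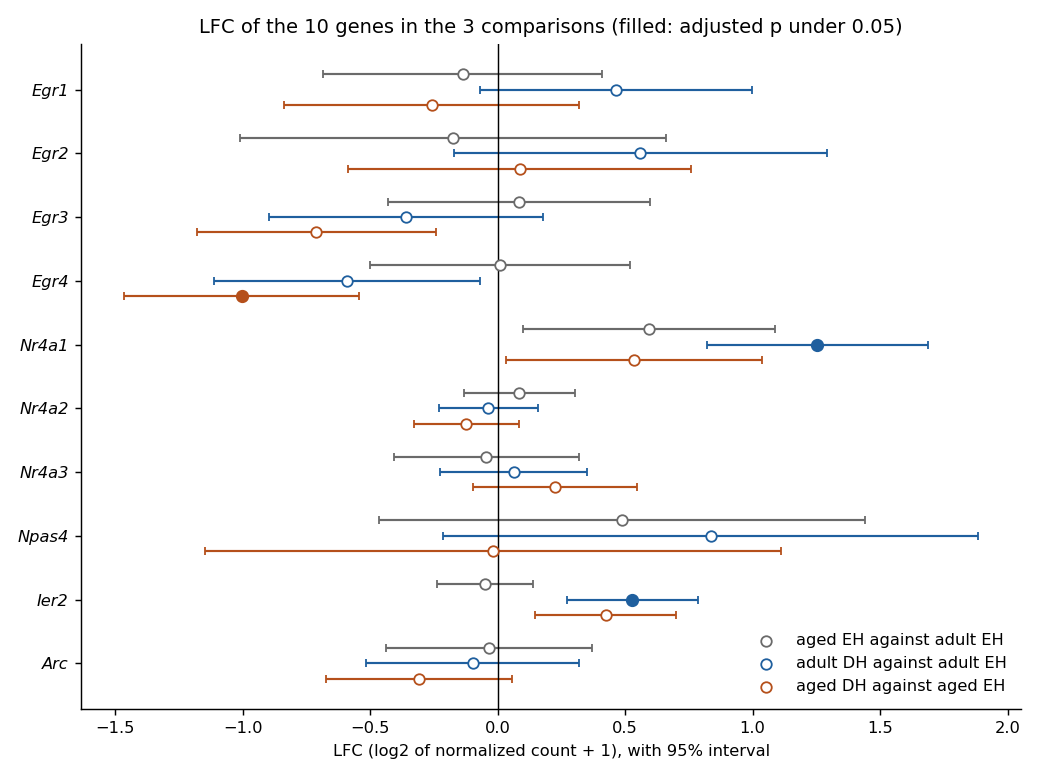
LFC of each of the 10 genes (x axis, log2 scale, lines are 95% intervals) for ageing (aged EH relative to adult EH, grey), DH in adult rats (blue) and DH in aged rats (orange), with filled points for adjusted p below 0.05. Filled points are Nr4a1 (1.25) and Ier2 (0.53) in adult DH and Egr4 (-1.004) in aged DH, and the interval of Npas4 is the widest in each comparison.

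The next comparison asked how the SON of aged rats responded to DH. Of 15346 genes tested, 7.29% were DEGs, 4.05% higher and 3.25% lower. Of the 10 genes, 0 were higher and 1 was lower. Their median LFC was -0.07, against -0.0030 over all genes tested. An LFC above 0 was found in 4 of the 10, against 49% of all genes tested.

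Egr4 was the DEG. Its normalized counts were 47.2, 35.3, 50.0, 57.9 and 52.3 in aged EH rats and 21.9, 22.5, 17.5, 21.0 and 38.5 in aged DH rats. A single DH rat, replicate 6, lay within the EH range, and the other 4 lay below it. The mean fell from 48.5 ± 8.35 to 24.3 ± 8.19 (SD, n = 5), with an LFC of -1.004 and an SE of 0.215 (limma, adjusted p = 0.0114). The call held with any single rat left out (adjusted p = 0.00258 to 0.0380) and was lost under 3 of 7 other settings, among them each covariate for forebrain neurones.

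Egr3 moved in the same direction as Egr4 in LFC without passing the test. It measured 216.1, 129.6, 161.3, 278.0 and 191.9 in aged EH rats and 122.9, 140.3, 99.0, 72.9 and 161.9 in aged DH rats. The groups overlapped, and the LFC was -0.71 (95% interval -1.18 to -0.24) with an unadjusted p of 0.00573 and an adjusted p of 0.0659. Without aged DH replicate 6 it was -0.83 (limma, adjusted p = 0.0334), and without aged EH replicate 2 it was -0.85 (adjusted p = 0.0343).

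Markers of forebrain glutamatergic neurones, cells that lie outside the SON, were lower in the same aged DH punches. Of the 6 markers on the list, all of which were detected, Slc17a7, Neurod2 and Neurod6 were lower DEGs, and none of the other 3 passed the test. The summed level of the 6 was 1676 to 4062 normalized counts in aged EH and 864 to 1620 in aged DH, without overlap (two-sided exact permutation test of the mean log2 level, p = 0.00794, the smallest that 5 against 5 allows, and adjusted p = 0.0714 over 27 marker tests). In adult rats the summed level was 953 to 3099 in EH and 920 to 2332 in DH, and the mean log2 level differed by -0.04 (exact p = 0.929). Slc17a7, the vesicular glutamate transporter of cortical neurones, had an LFC of -1.92 in aged DH (limma, adjusted p = 0.00224). With the mean log2 level of this list as a covariate, the LFC of Egr4 in aged DH was -0.81 and no longer passed (limma, adjusted p = 0.782), and 15 genes in all were DEGs. That level was 6.67 to 7.55 in aged EH and 5.73 to 6.65 in aged DH, without overlap. Such a fit can hardly separate the covariate from DH, so the loss of the call does not tell what lowered Egr4. The part of these cells in the fall of Egr4 was not tested.

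**Figure D2:**
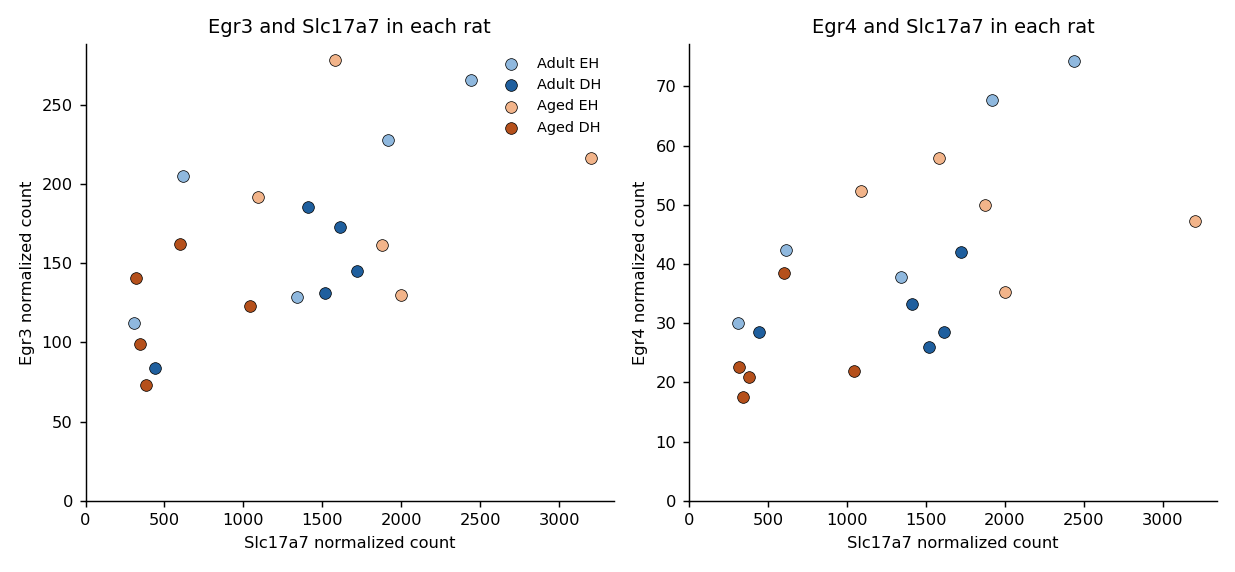
Normalized counts of Egr3 (left, y axis) and Egr4 (right, y axis) against Slc17a7 (x axis) in each of the 20 rats, coloured by group, on linear axes from 0. The aged DH rats lie at the lower left, with Slc17a7 between 318.6 and 1044 and Egr4 between 17.5 and 38.5, and the aged EH rats lie at Slc17a7 levels of 1091 to 3201.

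The genes that rose in adult DH did not pass in aged DH. Nr4a1 measured 564.8, 518.4, 547.3, 986.6 and 442.4 in aged EH rats and 673.7, 863.6, 625.3, 786.8 and 1572 in aged DH rats. Aged EH replicate 5 exceeded 4 of the 5 aged DH rats, so the groups overlapped, and the LFC was 0.54 (95% interval 0.03 to 1.04, adjusted p = 0.198). Ier2 measured 154.8, 147.3, 146.0, 173.6 and 173.0 in aged EH rats and 180.1, 192.6, 182.5, 235.6 and 293.3 in aged DH rats. Its groups did not overlap, the LFC was 0.42 (0.15 to 0.70) and the unadjusted p was 0.00526, but the adjusted p was 0.0626.

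Of the remaining genes in aged rats, Egr1 measured 1085, 922.8, 845.4, 1758 and 907.3 in EH and 798.5, 998.8, 522.4, 722.9 and 1824 in DH. Apart from replicate 5 in EH and replicate 6 in DH, no aged rat exceeded 1085, and the LFC was -0.26 (95% interval -0.84 to 0.32, adjusted p = 0.650). Npas4 measured 27.1, 57.9, 19.4, 63.6 and 17.1 in EH and 16.2, 35.9, 11.7, 38.9 and 114.5 in DH, with an LFC of -0.02 (-1.15 to 1.11, adjusted p = 0.989). Arc had an LFC of -0.31 (-0.67 to 0.05, adjusted p = 0.319), Nr4a3 of 0.22 (-0.10 to 0.55, adjusted p = 0.433), Nr4a2 of -0.12 (-0.33 to 0.08, adjusted p = 0.518) and Egr2 of 0.09 (-0.59 to 0.76, adjusted p = 0.917).

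Whether aged rats responded to DH otherwise than adult rats was tested as an interaction over all 20 rats. Of 15324 genes, 0% were DEGs by limma, and 1528 (9.97%) had an unadjusted p below 0.05. None of the 10 passed, and 1 (Nr4a1) had an unadjusted p below 0.05. The response of Nr4a1 was lower in aged rats by 0.72 on the log2 scale, with a 95% interval from -1.44 to about 0 (unadjusted p = 0.0498, adjusted p = 0.501). Egr1 had a difference of similar size, -0.72 (-1.58 to 0.13, adjusted p = 0.582), Ier2 of -0.10 (-0.49 to 0.28, adjusted p = 0.897) and Egr4 of -0.41 (-1.10 to 0.28, adjusted p = 0.737). A call at one age only, as for Nr4a1, Ier2 and Egr4, was therefore not shown to be a difference between the ages.

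Age in the absence of DH was examined by comparing aged EH with adult EH. These EH rats are also the controls of the DH comparisons, so the LFCs are not independent of those above. Of 15369 genes, 5.99% were DEGs, 2.69% higher and 3.3% lower in aged rats, and none of the 10 was among them. At an unadjusted p below 0.05 there was 1 of the 10, against 20.3% of all genes tested. It was Nr4a1, with an LFC of 0.59 (limma, 95% interval 0.10 to 1.09, unadjusted p = 0.0221, adjusted p = 0.157). The aged EH rats measured 611.9 ± 215 normalized counts of Nr4a1 and the adult EH rats 407.4 ± 139 (SD, n = 5). The LFCs of the other 9 lay between -0.17 (Egr2) and 0.49 (Npas4), with adjusted p-values of 0.609 to 0.991. The intervals were narrow for Ier2 (-0.24 to 0.14) and Nr4a2 (-0.13 to 0.30) and wide for Npas4 (-0.47 to 1.44) and Egr2 (-1.01 to 0.66).

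Aged DH rats were also set against adult DH rats, where 12.4% of 15324 genes were DEGs and none of the 10 was. Egr1 came nearest, at 1651 ± 428 in adult DH and 973.3 ± 505 in aged DH (SD, n = 5), with an LFC of -0.86 (95% interval -1.46 to -0.25, unadjusted p = 0.00762, adjusted p = 0.0569). It passed without aged DH replicate 6 (-1.12, adjusted p = 0.0102) or adult DH replicate 5 (-0.98, adjusted p = 0.0410), and also when adult EH replicate 4 (adjusted p = 0.0324) or aged EH replicate 5 (adjusted p = 0.0476) was left out of the shared estimate of the spread. Egr2 did not overlap between adult DH (14.8 to 25.2) and aged DH (7.17 to 14.6), but its LFC of -0.64 had an adjusted p of 0.214. Nr4a1 had an LFC of -0.12 (-0.63 to 0.38, adjusted p = 0.796), with means of 942.1 ± 180 and 904.3 ± 385.

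Over the 4 groups, the order of the mean levels differed among the genes. Nr4a1 and Npas4 shared an order, from adult EH through aged EH and aged DH to adult DH, and for Nr4a1 the mean in the last group was 2.31 times that in the first. Ier2 also was lower in EH than in DH at each age, with aged EH lowest and adult DH highest (1.51 times). Egr4 and Arc ran from aged DH through adult DH and aged EH to adult EH, with ratios of 2.08 and 1.281. Egr3 and Nr4a2 ran from aged DH through adult DH and adult EH to aged EH, with ratios of 1.64 and 1.10. Egr1 was lowest in aged DH and highest in adult DH (1.70 times), Egr2 was lowest in aged EH and highest in adult DH (1.63 times), and Nr4a3 was lowest in aged EH and highest in aged DH (1.16 times). No pair of EH groups or of DH groups passed the test for any of the 10 genes, so the places of adult and aged rats given the same water regime are not distinguished by these orders.

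The rats within a group differed widely, and often in the same direction for many of the 10 genes. Aged EH replicate 5 was the highest of its group in 9 of the 10, the exception being Nr4a2. Aged DH replicate 6 was the highest of its group in 8, adult EH replicate 5 in 7 and adult DH replicate 3 in 6. Adult EH replicate 4 was the lowest of its group in 7 and aged DH replicate 3 in 6. The median deviation of the 10 genes from the group mean was 0.57 on the log2 scale in aged EH replicate 5, 0.51 in aged DH replicate 6, 0.59 in adult EH replicate 5 and -0.48 in adult EH replicate 4.

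**Figure D3:**
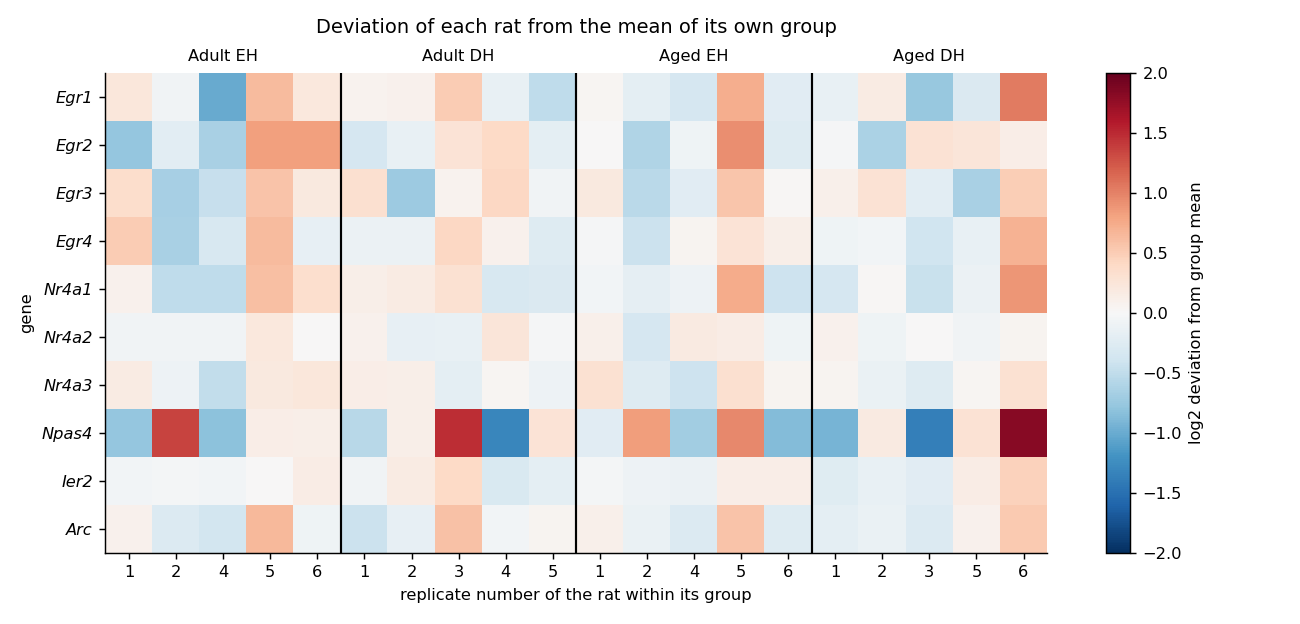
Log2 deviation of each rat (columns, grouped by condition and numbered by replicate) from the mean of its own group for each of the 10 genes (rows), from blue (below) to red (above). Columns that are red throughout, such as aged EH replicate 5 (median 0.57) and aged DH replicate 6 (median 0.51), are rats in which most of the genes were high, and Npas4 has the strongest colours.

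The deviations from the group mean were correlated with those of Egr1 over the 20 rats, in 9 relations, with permutation within groups (100000 permutations, p-values adjusted over the 9). Nr4a1 followed Egr1 most closely (Pearson's r = 0.897, adjusted permutation p = 9e-05, Spearman's rho = 0.863, adjusted p = 0.00018). Arc (r = 0.761, adjusted permutation p = 0.00171, rho = 0.663, adjusted p = 0.0081) and Egr4 (r = 0.737, adjusted permutation p = 0.00358, rho = 0.659, adjusted p = 0.00839) came next. Nr4a3 (r = 0.705, rho = 0.705), Ier2 (r = 0.633, rho = 0.576) and Egr3 (r = 0.615, rho = 0.666) also passed, with adjusted permutation p-values of 0.00358, 0.00623 and 0.0124 for r and 0.00594, 0.0171 and 0.0081 for rho. For Npas4 the r of 0.624 passed (adjusted permutation p = 0.0124) and the rho of 0.504 did not (adjusted p = 0.0533). Egr2 (r = 0.421, adjusted permutation p = 0.114, rho = 0.319, adjusted p = 0.239) and Nr4a2 (r = 0.210, adjusted permutation p = 0.350, rho = 0.149, adjusted p = 0.537) did not pass. Without the 2 rats farthest from the median of Egr1 (aged DH replicate 6 and adult EH replicate 4), r was 0.865 for Nr4a1, 0.705 for Arc, 0.659 for Egr4, 0.560 for Nr4a3, 0.557 for Ier2, 0.537 for Egr3, 0.485 for Npas4, 0.359 for Egr2 and 0.143 for Nr4a2. The rats share the library, the dissection and the size factor across genes, and whether any of these moved the genes together was not tested.

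The genes outside the 10 with the most similar pattern were found by Pearson's r of log2 values over the 20 libraries, among 12672 genes with a symbol and a mean of at least 50. For Nr4a1 they were Fos (0.923), Per1 (0.920) and Sik1 (0.900), and for Ier2 they were Dusp1 (0.897), Fos (0.878) and Zfp36 (0.876). All of these are themselves immediate-early genes. For Egr1 and Npas4 the closest was Junb (0.833 and 0.787). For Egr3 they were Atp2b4 (0.916), a plasma membrane calcium pump, Nedd4l (0.908), a ubiquitin ligase, and Chrm1 (0.901), a muscarinic receptor. For Egr4 they were Necab2 (0.912), a neuronal calcium-binding protein, Wdr47 (0.911) and Prkce (0.903), a protein kinase C. Arc (Mex3b, 0.770), Nr4a3 (Tmem170a, 0.771), Egr2 (Vash1, 0.758) and Nr4a2 (Ppp2r2b, 0.826) had as their closest genes ones outside the immediate-early lists. The 20 points include group differences as well as differences between rats, and they share depth and dissection, so these values are a description.

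The other immediate-early genes give the setting of these results. Of the 7 AP-1 genes, whose products dimerise and bind AP-1 sites, 4 were higher in adult DH. They were Fosl1 (LFC 3.40, adjusted p = 4.87e-07), Fos (1.13, adjusted p = 0.00251), Fosl2 (0.59, adjusted p = 0.000543) and Jund (0.29, adjusted p = 0.00501). The values for the other 3 were 0.33 for Fosb (adjusted p = 0.258), 0.33 for Junb (adjusted p = 0.160) and 0.16 for Jun (adjusted p = 0.147). In aged DH, 3 of the 7 were higher, namely Fosl1 (1.88, adjusted p = 0.000170), Fosl2 (0.57, adjusted p = 0.00178) and Jund (0.23, adjusted p = 0.0120). Fos measured 331.9 ± 143 and 568.2 ± 222 in the aged table (SD, n = 5), with an LFC of 0.78 and an adjusted p of 0.0740, while Jun (0.12, adjusted p = 0.186), Junb (-0.05, adjusted p = 0.918) and Fosb (-0.24, adjusted p = 0.578) did not pass. The only DEG of the 7 in ageing was Fosl1 (1.39, adjusted p = 0.0122).

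Of 24 further immediate-early genes, 8 were higher and 1 was lower in adult DH, with a median LFC of 0.25. The leading ones were Maff (1.22, adjusted p = 7.25e-05), a small MAF factor, Trib1 (0.85, adjusted p = 7.36e-05), a pseudokinase, the clock gene Per1 (0.64, adjusted p = 0.00103) and the kinase Sik1 (0.64, adjusted p = 0.000966). In aged DH, 5 of the 24 were higher and 0 were lower, with a median LFC of 0.08, led by Maff (1.17, adjusted p = 5.34e-05), Csrnp1 (0.62, adjusted p = 0.00208), Trib1 (0.58, adjusted p = 0.00458) and Cebpb (0.48, adjusted p = 0.0396). In ageing, 1 was higher and 3 were lower, namely Gadd45b (0.41, adjusted p = 0.0407), Klf10 (-0.43, adjusted p = 0.0423), Ier5l (-0.41, adjusted p = 0.0265) and Ier5 (-0.35, adjusted p = 0.0144). Ier2 had an LFC of -0.05 in ageing, against these lower values of its relatives Ier5 and Ier5l.

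Of 11 delayed genes that neuronal activity induces through such factors, 4 were higher and 1 was lower in adult DH. They were the neuropeptide precursor Vgf (1.76, adjusted p = 4.42e-08), the secretory granule protein Scg2 (0.96, adjusted p = 8.83e-06), the small GTPase Rasd1 (0.85, adjusted p = 1.45e-05) and the prohormone convertase Pcsk1 (0.76, adjusted p = 4.07e-05), with Rgs2 lower. In aged DH, 3 were higher and 1 was lower, namely Vgf (1.02, adjusted p = 3.33e-05), Rasd1 (0.67, adjusted p = 0.000294), Scg2 (0.62, adjusted p = 7.34e-05) and, below 0, the synaptic protein Nptx2 (-0.32, adjusted p = 0.00286). In ageing, 3 were higher and 0 were lower, and these were Pcsk1 (0.48, adjusted p = 0.0291), Vgf (0.43, adjusted p = 0.00435) and Scg2 (0.21, adjusted p = 0.0405).

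Of 15 listed upstream regulators of immediate-early genes, 3 were higher and 2 were lower in adult DH. Counts per gene do not tell whether a regulator activates or represses its targets, and this was not tested. Crem, a CREB relative, was higher (0.55, adjusted p = 0.000290), as were the SRF partners Elk3 (0.27, adjusted p = 0.00158) and Elk4 (0.19, adjusted p = 0.00623), and Elk1 was lower (-0.17, adjusted p = 0.0205), as was the CREB coactivator gene Crtc1. In aged DH, Crem was higher (0.44, adjusted p = 0.000601) and Mef2c was lower (-0.41, adjusted p = 0.00325). In ageing, Elk1 alone passed (-0.19, adjusted p = 0.0469). Of 7 partners of the EGR, NR4A and NPAS4 proteins, Nab1, a corepressor of EGR factors, was higher in adult DH (0.51, adjusted p = 0.000859) and in aged DH (0.20, adjusted p = 0.0123). Rxrg, a retinoid X receptor, was lower in adult DH (-0.70, adjusted p = 9.26e-05) and in aged DH (-0.57, adjusted p = 0.00164), and Rxrb was lower in adult DH (-0.19, adjusted p = 0.00947). None of the 7 partners passed in ageing.

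**Figure D4:**
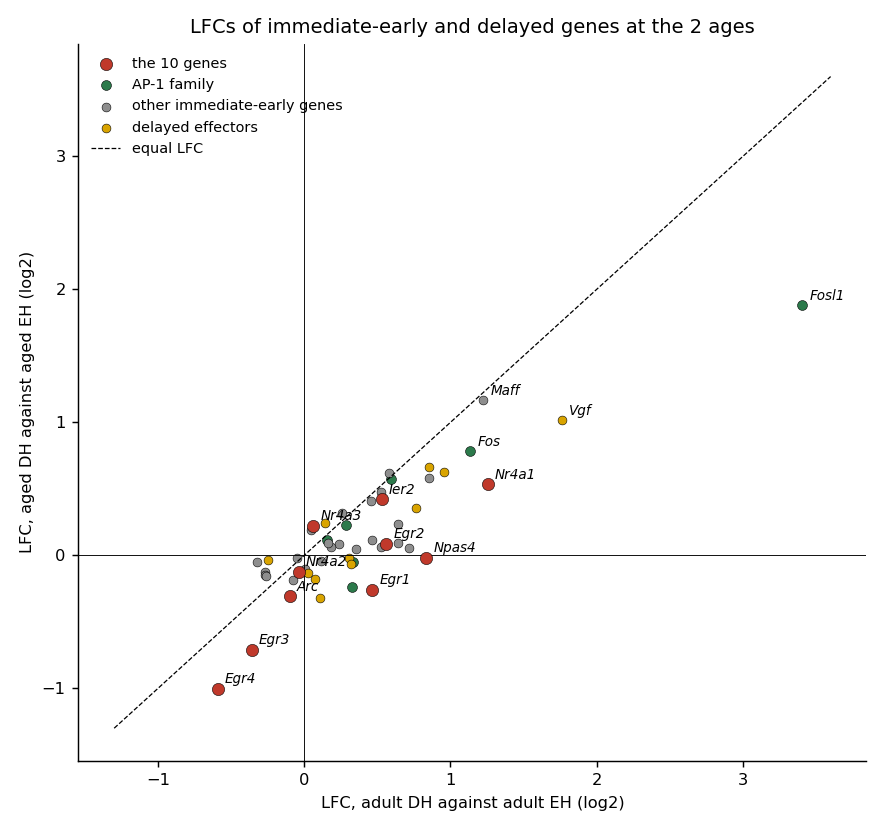
LFC in adult DH (x axis) against LFC in aged DH (y axis), both log2, for the 10 genes (red, all named), the 7 AP-1 genes (green), 24 further immediate-early genes (grey) and 11 delayed genes (yellow), with a dashed line of equal LFC. Nr4a1 lies at 1.25 and 0.54 and Fosl1 at 3.40 and 1.88, below the line. Of the 10 genes, Egr3, Egr4, Nr4a2 and Arc lie below 0 on both axes.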

How the data were processed

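Poly(A) RNA from SON punches of 20 rats was sequenced, 5 in each of 4 groups. Per the labels and the study's methods, the authors aligned reads with STAR to Rn6, counted them per gene with featureCounts and used FastQC and DESeq2. The deposited signal in each column is the read count divided by a DESeq2 size factor, estimated by the authors within each of 3 tables. The deposited fold changes and p-values of the authors were not used. All 30 per-sample columns were used.

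The members and gene lists were chosen with earlier results of these data known. The test was limma 3.58.1 in R 4.3.3 (prior variance following the mean) on log2(normalized count + 1), for genes averaging 10 or more, two-sided, Benjamini-Hochberg threshold 0.05 and no LFC filter. Each table was fitted on its own. The interaction and aged DH against adult DH were fitted over 20 rats on a common median-of-ratios scale. Whole reads were recovered in the adult DH table alone (tolerance 0.1 read), where edgeR 4.0.16 called 1936 genes and DESeq2 1.42.0 called 2256, against 1934 by limma. Named genes are all 10 members, all AP-1 genes, and up to 4 DEGs of each other list and comparison by absolute LFC. Of the 3 most similar genes found for each member, all 3 are named for Nr4a1, Ier2, Egr3 and Egr4. For the other members the closest alone is named. Mkl2, Ep300, Snap25 and Pecam1 had no row under these symbols. Exact permutation tests went through every split of the rats with numpy 2.4.6, ranks for Spearman's rho used scipy 1.17.1, and figures matplotlib 3.10.9. Scripts were tested on simulated counts. Replicate numbers come from the labels, and same-numbered rats did not deviate together (correlations of deviations -0.083 to 0.162), so they are not treated as pairs.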

Additional observations from a re-analysis of the deposited data

Results flagged for a closer look

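Dixon's test was applied to the 40 sets of 5 rats (10 genes in 4 groups), at a critical value of 0.71 for the gap over the range. It singled out 8 sets. A chance rate of about 5% holds for independent sets of normally distributed values. The 40 sets share rats and hold counts not on a log scale, so the 8 cannot be weighed against that rate. Aged EH replicate 5 stood above the rest of its group in Egr1 (1758 normalized counts), Egr2 (21.8) and Nr4a1 (986.6). Aged DH replicate 6 stood above the rest of its group in Egr4 (38.5), Nr4a1 (1572) and Npas4 (114.5). Adult EH replicate 5 stood apart in Nr4a2 (296.3) and adult EH replicate 2 in Npas4 (59.1). In no case was the rat that stood apart the lowest of its group. Without aged EH replicate 5, the LFC of Nr4a1 in aged DH was 0.72 (limma, adjusted p = 0.0698), and without aged DH replicate 6 it was 0.32 (adjusted p = 0.341), so that its direction held and it did not pass in either case.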

How the results depend on the processing

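Nr4a1 (LFC 1.21 to 1.26 over 9 alternatives, 1.13 to 1.41 with each rat left out) and Ier2 (0.47 to 0.56 and 0.43 to 0.60) in adult DH kept their calls throughout. Egr4 in aged DH kept its direction under all 7 alternatives (-1.01 to -0.79) and lost its call under 3 of them. With the replicate number as a replicate block it was -0.89 (limma, adjusted p = 0.0639), with the forebrain marker covariate -0.81 (adjusted p = 0.782) and with the Slc17a7 covariate, chosen after seeing the data, -0.90 (adjusted p = 0.731), so that 0 of the 10 were called in aged DH in each of these. Neither covariate overlapped between aged EH and aged DH rats, so the fits with a covariate can hardly separate it from DH. The replicate block also made 1 gene a DEG in ageing (Nr4a1, 0.59, adjusted p = 0.0425) and 1 in aged DH against adult DH (Egr1, -1.04, adjusted p = 0.0303). It changed no other call of the 10, and the numbers are not known to pair rats. With each rat left out, 1 to 2 of the 10 were called in aged DH (2, with Egr3, without aged EH replicate 2 or aged DH replicate 6) and 0 to 1 in aged DH against adult DH (1, Egr1, without any of the 4 rats named in the report).

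Directions turned only for genes that were not called. With a pseudocount of 10 these were Egr4 in ageing (-0.001) and Npas4 in aged DH (0.020). With the replicate block they were Nr4a2 in adult DH (0.0017) and, in aged DH, Egr2 (-0.0095) and Npas4 (0.15). With the forebrain marker covariate they were Egr3 (-0.030), Egr4 (-0.17) and Ier2 (0.0087) in ageing, Egr1 (0.15), Egr2 (-0.010), Nr4a2 (0.034) and Npas4 (0.42) in aged DH, Egr3 (0.17), Nr4a2 (0.063) and Arc (0.026) in the difference between the ages, and Egr3 (0.056) in aged DH against adult DH. With the Slc17a7 covariate they were Egr3 (-0.12) and Egr4 (-0.23) in ageing, Egr1 (0.051), Nr4a2 (0.030) and Npas4 (0.19) in aged DH, Egr3 (0.27), Egr4 (0.089), Nr4a2 (0.054) and Arc (0.13) in the difference between the ages, and Egr3 (0.12) and Nr4a1 (0.019) in aged DH against adult DH. With each rat left out, the LFCs that crossed 0 were, in ageing, Egr1 (-0.39 to 0.0205), Egr2 (-0.41 to 0.031), Egr3 (-0.082 to 0.23), Egr4 (-0.15 to 0.17), Nr4a3 (-0.17 to 0.059) and Arc (-0.18 to 0.13). In adult DH they were Nr4a2 (-0.097 to 0.016), Nr4a3 (-0.060 to 0.12) and Arc (-0.24 to 0.062), in aged DH Egr2 (-0.064 to 0.32) and Npas4 (-0.48 to 0.32), and in aged DH against adult DH Nr4a2 (-0.038 to 0.063) and Npas4 (-0.82 to 0.0032). The cause was not tested.

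The number of DEGs among all genes moved by over 1.5 times under some settings. In ageing it was 921, against 483 with the forebrain marker covariate, 604 with the Slc17a7 covariate, 516 with one prior variance for all genes, 594 without adult EH replicate 5 and 599 without aged EH replicate 4. In adult DH it was 1934, against 987 with the replicate block. In aged DH it was 1119, against 653 with the block, 671 with one prior variance, 15 with either covariate, 679 without aged EH replicate 5 and 678 without aged DH replicate 5. In aged DH against adult DH it was 1906, against 3068 on the scales of the separate tables, 899 with the forebrain marker covariate and 805 with the Slc17a7 covariate. For the difference between the ages it was 0, against 1 with the block or one prior variance and up to 5 (without aged EH replicate 6) with a rat left out. Egr2, Egr4 and Npas4 had the lowest counts of the 10 (group means of 11.8 to 19.2, 24.3 to 50.4 and 26.7 to 50.8 on the common scale), which limits what these libraries could show for them, the call of Egr4 included.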
